A study of Mus musculus with 14 samples.

Results

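Oxidative phosphorylation subunit genes encode the protein parts of the respiratory chain and of the mitochondrial ATP synthase. They were taken from the table by symbol: names that begin with Nduf and a subunit letter, with Cox4 to Cox8, with Uqcr or with Atp5, the 4 Sdh genes and Cycs, with pseudogene entries left out. This gave 83 of the 18481 genes listed. All 83 were at 1 or higher in 2 or more tumours, which was required for testing and which 15841 genes met. Of the 83, 74 encode general subunits (35 of complex I, 4 of complex II, 9 of complex III with cytochrome c, 11 of complex IV and 15 of ATP synthase), 6 encode tissue isoforms (Cox4i2, Cox6a2, Cox6b2, Cox7a1, Cox8b and Ndufa4l2) and 3 encode associated factors (Cox7a2l, Atp5s and Atp5sl).

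Complexes I and II pass electrons from NADH and succinate to ubiquinone, complex III passes them on to cytochrome c, and complex IV passes them to oxygen. Complexes I, III and IV pump protons across the inner mitochondrial membrane, and ATP synthase, complex V, uses the proton gradient to make ATP. Most subunits are encoded in the nucleus and a few in mitochondrial DNA, so each complex other than complex II needs both genomes. In melanoma, respiration is a known point of adaptation to inhibitors of BRAF, the kinase whose mutant form drives many of these tumours.

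RNA was sequenced from 14 tumours of SMM102, a mouse melanoma line, implanted subcutaneously in female C57BL/6J mice aged 6 to 8 weeks that received 2 injections each. Treatment began at a volume of 150 to 300 mm3. PLX4032, or vemurafenib, a BRAF inhibitor, was given intraperitoneally at 50 mg/kg, 5 times a week. Treated mice gave 2 tumours on day 3, 2 on day 6, 2 on day 18 and 4 on day 27, the last being the left and right tumours of 2 mice. Controls, untreated by the sample labels and vehicle-injected by the design text, gave 2 tumours on day 3 and 2 on day 6. All tumours come from this single line, and day 18 and day 27 have no controls of their own day. The columns are not tied to mice, so the 4 day 27 tumours entered as separate samples and p-values that include them are too small. For the other groups a p-value covers only the spread among these tumours, an estimate that the day 27 tumours also enter. The labels do not say whether the 2 day 18 tumours came from different mice.

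The deposited values are named TPM, a per-million scale per transcript length on which genes can be compared, but their totals differ between columns. Column totals were 879385 to 1084400, and the read depth is unknown. Among melanocyte genes, Mlana, Tyr, Dct and Tyrp1 were not among the tested genes, Sox10 ran from 0.0338 to 2.25, Pmel from 0.338 to 1.05 and Mitf from 1.56 to 10.4. The pigment markers tested were thus low, while Axl, a receptor kinase of undifferentiated melanoma cells, had 290.2 to 430.5. On day 3, summed leukocyte markers were 6075 and 11034 under PLX4032, against 556 to 1483 in controls, and summed proliferation markers were 426 and 429, against 1095 to 1397. Whole tumours were used, so fewer cells of a type and less RNA per cell cannot be told apart.

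The median absolute log2 change of the 74 general subunit genes against controls was 0.15 on day 3 of PLX4032, 0.07 on day 6, 0.22 on day 18 and 0.07 on day 27. Over all tested genes it was 0.39, 0.18, 0.23 and 0.15 on the same days, so on day 18 the general subunits were close to the whole table. Over tested genes with a mean of 20 or more, a level that all general subunits reached, it was 0.37, 0.14, 0.20 and 0.13. Against these the general subunits were lower on days 3, 6 and 27 and slightly higher on day 18. The mean over all tumours ran from 21.2 for Ndufa11 to 974 for Atp5b among the general subunits, and from 2.12 for Cox6b2 to 7.86 for Ndufa4l2 among the tissue isoforms. All 83 together made up 1.57% and 1.58% of the column total on day 3 of PLX4032, 1.66% and 1.67% on day 6, 1.83% and 1.78% on day 18, and 1.72%, 1.66%, 1.82% and 1.60% on day 27, against 1.68% and 1.55% in day 3 controls and 1.48% and 1.69% in day 6 controls. Only the 2 tumours of day 18 and the day 27 tumours 1 and 3 stood above every control in this share. The 83 genes were also steady between tumours of a group, with a median residual SD of 0.158 on the log2 scale, against 0.188 over all tested genes.

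On day 3 of PLX4032, 9 of the 83 genes rose and 6 fell, against the mean of both control groups (limma, Benjamini-Hochberg adjusted p under 0.05 over all tested genes). The same comparison called 45.8% of all tested genes, 24.9% higher and 20.8% lower, and 52.3% of those with a mean of 20 or more, of which the 76 members above that level had 10 called. The median log2 change of the 83 genes was -0.00 with 40 above 0, and the median of all tested genes was 0.02. By complex, 2 genes of complex I rose and 3 fell, 3 of ATP synthase fell, and no general subunit of complexes II, III or IV was called. The rises were led by 5 of the 6 tissue isoforms and 2 of the 3 associated factors. The balance of rises and falls depends on the scaling: 8 rose and 13 fell under median-of-ratios rescaling, 12 rose and 17 fell under quantile normalisation, 12 rose and 19 fell with 1 protein-coding nuclear total, and 15 rose and 8 fell with 1 total per column. Among the 74 general subunits, 6 fell here and 13, 17, 19 and 8 fell under these scalings. Without day 3 tumour 2 under PLX4032, the 4 genes Cox6b2, Atp5b, Ndufa12 and Ndufs1 were called, beside 27.4% of all tested genes.

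**Figure D1:**
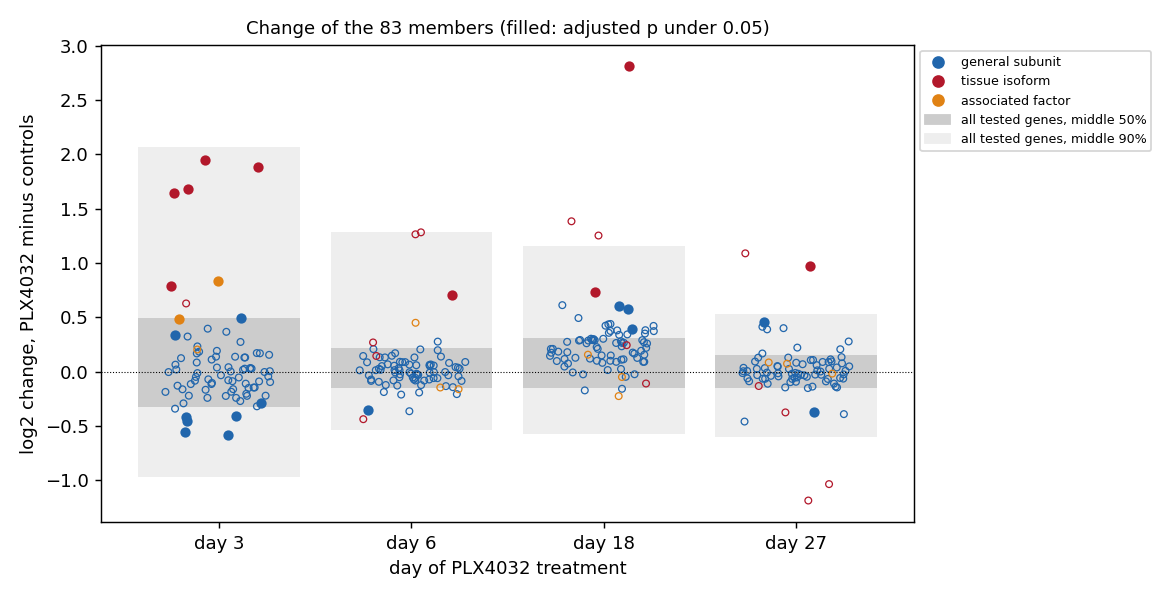
Log2 change (vertical axis) of the 83 genes on each day of PLX4032 against controls, with general subunits in blue, tissue isoforms in red and associated factors in orange; filled points passed an adjusted p of 0.05, and grey bands hold the middle of all tested genes. The median over all 83 genes is -0.00 on day 3, 0.01 on day 6, 0.23 on day 18 and -0.01 on day 27, and tissue isoforms reach 2.81.

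The 6 falls of day 3 were Atp5b, Atp5a1 and Atp5g1 of ATP synthase and Ndufa12, Ndufs1 and Ndufv1 of complex I. Atp5b, the catalytic beta subunit of ATP synthase (chromosome 10, 128083273 to 128090391, plus strand, GRCm38), stood at 716 and 702 on day 3 of PLX4032, 1019 and 938 on day 6, 1072 and 1209 on day 18, and 926, 923, 1074 and 861 on day 27, against 1171, 1123, 875 and 1030.5 in controls. Both day 3 tumours lay below all other tumours, and the other days overlapped the controls. It averaged 709 ± 9.96 (SD, n = 2) on day 3 and 1050.0 ± 130.4 (SD, n = 4) in controls, a log2 change of -0.56 ± 0.11 (SE, limma adjusted p = 0.00253). Atp5a1, the alpha subunit that forms the same head, had 391 and 355 on day 3, against 472 to 524 in controls (log2 change -0.42 ± 0.11, adjusted p = 0.0111). Atp5g1, a gene for the c subunit of the membrane ring, had 153 and 179.9, against 223 to 234 in controls (log2 change -0.46 ± 0.16, adjusted p = 0.0335). Its call was lost when any of the 6 tumours compared was left out.

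Ndufa12, an accessory subunit of complex I (chromosome 10, 94198720 to 94221443, plus strand), had 111 and 117 on day 3, 163 and 185 on day 6, 201 and 192 on day 18, and 200.3, 178, 247 and 183 on day 27, against 168, 176, 171 and 172 in controls. Day 3 was separate from and below every other tumour, at a log2 change of -0.59 ± 0.12 (limma adjusted p = 0.00255). Ndufs1, the largest iron-sulfur subunit of complex I, had 46.5 and 49.9 on day 3, against 56.3 to 63.9 in controls, a change of -0.29 ± 0.08 on the log2 scale (adjusted p = 0.0146). Its exons overlap Eef1b2 on the other strand, and no source used here says whether counting used strand.

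Ndufv1, the flavoprotein through which NADH enters complex I (chromosome 19, 4007384 to 4012806, minus strand), had 105 and 100.1 on day 3 of PLX4032, 115 and 98.2 on day 6, 125 and 119.6 on day 18, and 105, 100.2, 119 and 98.9 on day 27, against 141 and 141 in day 3 controls and 137 and 128 in day 6 controls. All 10 treated tumours lay below all 4 controls, and of the 83 genes Ndufv1 was the only such one. Of all tested genes 125, or 0.789%, had this pattern, and 0.77% had the opposite one, which no member had. The log2 change was -0.41 ± 0.09 on day 3 (limma adjusted p = 0.00484), -0.36 ± 0.09 on day 6 (adjusted p = 0.0495), -0.16 ± 0.09 on day 18 (adjusted p = 0.282) and -0.37 ± 0.08 on day 27 (adjusted p = 0.0178). Each of these 4 comparisons uses the same controls.

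Among the rises of day 3, Cox7a2l, which joins complexes III and IV into supercomplexes (chromosome 17, 83501918 to 83517330, minus strand), had 259.6 and 291, against 192 to 200.1 in controls, with no overlap (log2 change 0.48 ± 0.12, limma adjusted p = 0.0079). From day 6 on it had 152 to 235 under PLX4032, around the control range. Atp5sl, known in human cells as an assembly factor of complex I, had 30.6 and 35.3, against 14.6 to 21.99 in controls (log2 change 0.84 ± 0.22, adjusted p = 0.00977). The third associated factor, Atp5s, was not called on any day. Ndufs6 and Ndufa1, accessory subunits of complex I named here after their values were seen, were the general subunits that rose. Ndufs6 had 85.3 and 95.6, against 60.0 to 67.3 in controls (log2 change 0.49 ± 0.16, adjusted p = 0.0292), and its exons overlap Mrpl36 on the other strand. Ndufa1 had 186 and 209.9, against 147 to 162 in controls (log2 change 0.34 ± 0.12, adjusted p = 0.0369), a call that was lost under median-of-ratios rescaling.

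**Figure D2:**
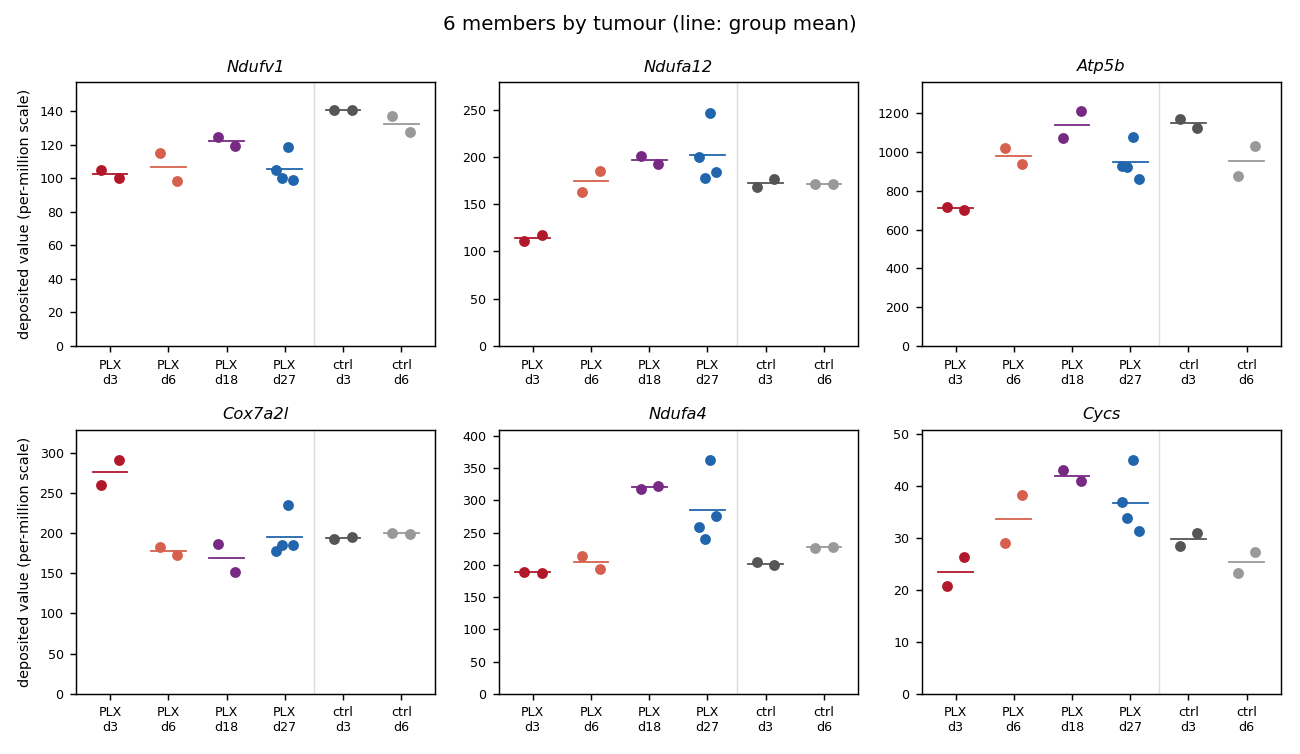
Deposited value (vertical axis, per-million scale, from 0) of 6 genes in each tumour, with PLX4032 days left of controls; points are tumours and lines group means. Atp5b and Ndufa12 are low on day 3 only, Cox7a2l is high on day 3, Ndufv1 is below controls on every treated day, and Ndufa4 and Cycs have their highest group means on days 18 and 27.

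Core subunits outside the 6 falls did not pass the test on day 3. In complex I, Ndufs8, a core iron-sulfur subunit, had a log2 change of -0.34 (limma adjusted p = 0.094), larger in size than that of the called Ndufs1. Sdha, the flavoprotein of complex II, had 138 and 136, against 148 to 158 in controls (log2 change -0.16, limma adjusted p = 0.126), and Sdhb, its iron-sulfur protein, had 163 and 185, against 141 to 153 (log2 change 0.23, adjusted p = 0.129). Both thus stood outside the control range, on opposite sides, without passing the test. Uqcrfs1, the Rieske protein of complex III, had 77.0 and 82.2, against 86.0 to 96.9 (log2 change -0.22, adjusted p = 0.0798). Uqcrc1, a core protein of complex III, had 74.1 and 75.9, against 72.8 to 88.6 (log2 change -0.15, adjusted p = 0.275), inside the control range. Counting by position alone, 15 of the 83 genes had both day 3 tumours above all controls and 24 had both below, all 24 of them general subunits. Over all tested genes these positions held 31.2% and 27.8%.

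Other mitochondrial and ribosomal gene lists are set here beside the 45.8% of all tested genes called on day 3 and the 20.8% called lower, without a test between lists. Of the 17 tricarboxylic acid cycle genes, which supply NADH and succinate, 0 rose and 12 fell, with a median log2 change of -0.39. Idh3a, a catalytic subunit of isocitrate dehydrogenase, had 32.0 and 36.6 on day 3, against 57.2 to 63.5 in controls (log2 change -0.79 ± 0.11, limma adjusted p = 0.000363). Suclg2 had a log2 change of -0.73 (adjusted p = 0.00093) and Mdh2 one of -0.55 (adjusted p = 0.00401). Of 79 mitochondrial ribosomal protein genes, 0 rose and 29 fell (median -0.23), led by Mrps6 at 102 and 67.1, against 197 to 238 in controls (log2 change -1.41 ± 0.16, adjusted p = 0.000153). Of 83 cytosolic ribosomal protein genes, 2 rose and 11 fell (median -0.18). Of 45 assembly factors of the complexes, 4 rose and 9 fell (median -0.10).

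Within those assembly factors the genes went both ways. Ndufaf2, an assembly factor related to Ndufa12, had 28.6 and 26.5 on day 3, against 52.4 to 56.6 in controls (log2 change -0.97 ± 0.16, limma adjusted p = 0.000842). Surf1, needed to build complex IV, had 68.3 and 69.6, against 47.4 to 55.7 (log2 change 0.42 ± 0.09, adjusted p = 0.00301). Among 7 further subunit genes whose symbols fell outside the choice, Ndufab1, the acyl carrier subunit of complex I, had 133 and 144, against 180.4 to 198 (log2 change -0.44 ± 0.10, adjusted p = 0.00411). The other 6 were not called.

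Among 14 regulators of mitochondrial biogenesis, 2 rose and 3 fell on day 3. Esrra, a nuclear receptor that drives respiratory chain genes, had 41.3 and 45.2, against 19.6 to 22.1 in controls (log2 change 1.00 ± 0.10, limma adjusted p = 7.59e-05), and 19.9 to 26.3 on later days. Its coactivator Ppargc1b had 1.57 and 1.48, against 0.218 to 0.435 (log2 change 0.96 ± 0.14, adjusted p = 0.00049). Peo1, the helicase that replicates mitochondrial DNA, had 9.58 and 7.42, against 15.3 to 17.6 (log2 change -0.89 ± 0.12, adjusted p = 0.000336). The Esrra-binding letters AAGGTCA were found in 10.7% of the 75 RefSeq promoter windows (GRCm38.p6, 250 bases before to 50 after the start, both strands) that matched 69 of the 83 genes, and in 4.72% of all 32851 windows.

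Few subunit genes encoded in mitochondrial DNA passed the test, while all of their estimates on days 3 and 6 were below 0. Of these 13 genes, 0 rose and 3 fell on day 3 (median log2 change -0.46), or 23.1% called beside 20.8% of all tested genes called lower. On day 6, 0 rose and 1 fell (median -0.58), or 7.69% beside 1.43% of all tested genes. With 1 protein-coding nuclear total 8 fell on day 3 and 4 on day 6. They made up 3.43% and 3.61% of the total on day 3, 3.64% and 2.95% on day 6, 3.96% and 4.96% on day 18, and 4.15%, 3.47%, 5.20% and 4.01% on day 27, against 4.74% and 4.501% in day 3 controls and 4.68% and 4.70% in day 6 controls. The 4 tumours of days 3 and 6 were all below the 4 controls, and days 18 and 27 each held tumours on both sides. On day 3, mt-Co2, which accepts electrons from cytochrome c, had 2458 and 3641, against 4448 to 6534 in controls (log2 change -0.89 ± 0.25, limma adjusted p = 0.0137). mt-Nd3, a core subunit of complex I, changed by -0.67 ± 0.23 on day 3 (adjusted p = 0.038) and by -1.10 ± 0.23 on day 6 (adjusted p = 0.0337), and mt-Atp6, the proton channel of ATP synthase, by -0.65 ± 0.23 on day 3 (adjusted p = 0.0373).

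The ratio between the 2 genomes was lower in most treated tumours, without passing a test. The sum of the 13 mitochondrially encoded genes over the sum of the 83 nuclear genes was 2.18 and 2.29 on day 3 of PLX4032, 2.19 and 1.77 on day 6, 2.17 and 2.79 on day 18, and 2.41, 2.10, 2.86 and 2.50 on day 27, against 2.83, 2.91, 3.16 and 2.79 in controls. The means were 2.23 ± 0.0716 (SD, n = 2) on day 3 and 1.98 ± 0.297 (SD, n = 2) on day 6, against 2.92 ± 0.168 (SD, n = 4) in controls. Two-sided exact permutation tests gave p = 0.0667 on days 3 and 6, the smallest that 2 against 4 tumours allow, 0.133 on day 18 and 0.0857 on day 27, and 0.114, 0.114, 0.133 and 0.114 after adjustment over the 4 tests. A ratio within a tumour shows unequal change and not which side changed.

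**Figure D3:**
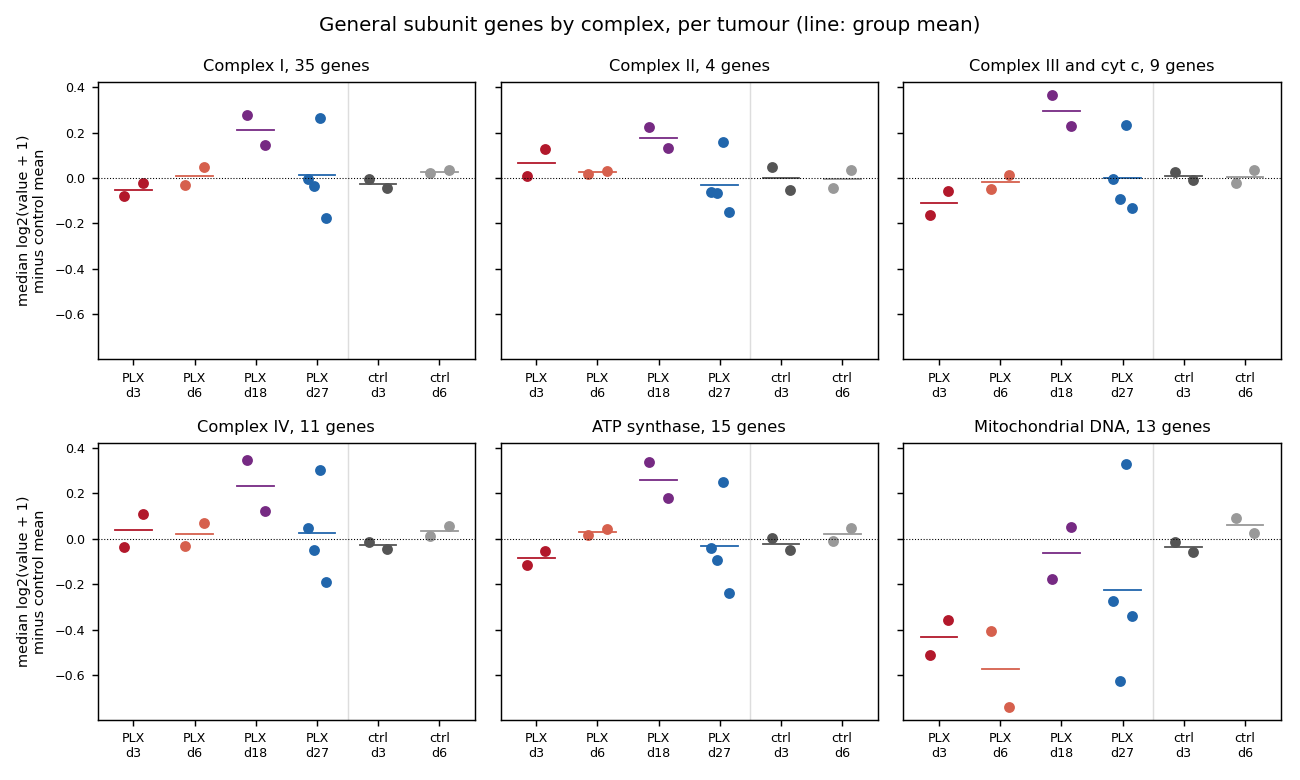
Median over the genes of each complex of log2(value + 1) minus the control mean (vertical axis), 1 point per tumour, PLX4032 days left of controls, lines for group means. Each of the 5 nuclear panels has its 2 day 18 tumours above 0 and day 27 split between tumour 3, high, and tumour 4, low; the mitochondrial DNA panel has all 4 tumours of days 3 and 6 between -0.74 and -0.36.

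By day 6 the members were back near controls. Cox6b2 rose and Ndufv1 fell (adjusted p = 0.037 and 0.0495), where limma called 5.92% of all tested genes, 4.49% higher and 1.43% lower, and the median log2 change of the 83 genes was 0.01. Against day 3 of PLX4032, day 6 had 2 higher and 5 lower members, beside 18.3% of all tested genes called, 10.9% higher and 7.34% lower, and no member was called without tumour 2 of either day. Ndufa12 (log2 change 0.60 ± 0.14, limma adjusted p = 0.0137) and Atp5b (0.46 ± 0.13, adjusted p = 0.0333) were higher on day 6. Cox7a2l (-0.63 ± 0.14, adjusted p = 0.012), Ndufv3, an accessory subunit of complex I (-0.53 ± 0.14, adjusted p = 0.0265), and the isoforms Cox6b2, Ndufa4l2 and Cox7a1 were lower. Between the control days no member was called, with 0% of all genes, and 0 members and 886 genes had an unadjusted p under 0.05.

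On day 18, 74 of the 83 genes (89.2%) had an estimate above 0, as did 59.2% of all tested genes. The median log2 change was 0.23 for the 83 genes and 0.07 for all tested genes. In the same tumours all 12 adipocyte markers rose, with a median log2 change of 5.21 and sums of 3318 and 3552, against 58.8 to 134 in controls; their part in the result was not tested. The medians by complex were 0.21 for complex I, 0.18 for complex II, 0.29 for complex III with cytochrome c, 0.28 for complex IV and 0.23 for ATP synthase. Both day 18 tumours were above all 4 controls in 47 of the 83 genes and below in 2, positions held by 24.9% and 13.5% of all tested genes. Single genes rarely passed the test: 5 rose and 0 fell, where 7.92% of all tested genes were called, 5.42% of all tested genes higher, and without day 18 tumour 2 no member was called. The shift depends on the scaling, with a median of 0.16 under median-of-ratios rescaling and 0.07 with 60 of 83 above 0 under quantile normalisation, which puts the median of all genes at -0.05. The 79 mitochondrial ribosomal protein genes had a median of 0.21 with 70 above 0, and the 17 tricarboxylic acid cycle genes 0.20 with 15 above 0. Set against day 6 of PLX4032 instead, limma called 0 of the 83 genes on day 18 and 1.51% of all tested genes, while 12 members and 2188 genes had an unadjusted p under 0.05; sample weights gave 1 call. The median of the 83 genes was 0.20 with 78 above 0.

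The 3 general subunits that rose on day 18 were Ndufa4, Ndufa9 and Cycs. Ndufa4, now assigned to complex IV (chromosome 6, 11900292 to 11907497, minus strand), had 189 and 188 on day 3 of PLX4032, 214 and 194 on day 6, 318 and 322 on day 18, and 258, 239.7, 363 and 276 on day 27, against 204, 200.2, 226 and 228 in controls. Days 18 and 27 lay above all controls, and the change on day 18 was 0.58 ± 0.14 on the log2 scale (limma adjusted p = 0.0291). Cycs, cytochrome c, the mobile electron carrier that also triggers apoptosis when it leaves mitochondria (chromosome 6, 50562563 to 50566538, minus strand), had 20.7 and 26.3 on day 3, 29.1 and 38.2 on day 6, 43.0 and 41.0 on day 18, and 36.9, 33.8, 45.0 and 31.4 on day 27, against 28.5, 31.0, 23.3 and 27.3 in controls. Its change on day 18 was 0.60 ± 0.16 on the log2 scale (adjusted p = 0.0445). Cycs has 2 named pseudogenes that could share its reads. Ndufa9, an accessory subunit near the ubiquinone site of complex I (chromosome 6, 126821721 to 126849136, minus strand), had 108 and 102 on day 18, against 78.9 to 81.1 in controls (0.39 ± 0.10, adjusted p = 0.0341); an unnamed-function transcript, 1700018A23Rik, overlaps it on the other strand.

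Cycs is a textbook target of NRF1, a transcription factor of respiratory genes, whose letters GCATGCGC were found in 14.7% of the 75 member windows and 2.71% of all windows. The 250 bases before the Cycs start are shown because this promoter holds that motif, written in capitals, at chr6:50566570-50566819 of GRCm38.p6 on the minus strand, from RefSeq.
Cycs: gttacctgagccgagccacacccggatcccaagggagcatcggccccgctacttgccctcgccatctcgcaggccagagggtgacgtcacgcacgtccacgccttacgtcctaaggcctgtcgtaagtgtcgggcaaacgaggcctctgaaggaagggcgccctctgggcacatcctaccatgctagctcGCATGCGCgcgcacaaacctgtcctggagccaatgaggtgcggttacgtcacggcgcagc
The motif begins 60 bases before the start, and the window of 300 bases has 32 CpG dinucleotides, against a median of 19 over the member windows and 7 over all windows. Other motifs searched on both strands were CCGGAAG of ETS factors, in 21.3% of member windows and 8.86% of all windows, and AAGATGGCG of YY1, in 12% and 1.4%. A match is a description of the letters and not of binding.

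On day 27, 2 members rose and 1 fell, where limma called 6.67% of all tested genes, 3.58% higher and 3.09% lower, and the median log2 change of the 83 genes was -0.01. Ndufb2, a membrane-arm subunit of complex I (chromosome 6, 39592574 to 39603382, plus strand), had 97.1 and 118 on day 3 of PLX4032, 108 and 106 on day 6, 153 and 129.7 on day 18, and 141, 147, 167 and 125 on day 27, against 106, 104, 103 and 107 in controls. The tumours of days 18 and 27 were all above the controls. In all, 7 members had the 4 tumours of day 27 above every control and 2 had them below, positions held by 7.33% and 6.43% of all tested genes. On day 27 the change was 0.46 ± 0.10 (limma adjusted p = 0.0193), beside the fall of Ndufv1 and a rise of Cox4i2. The 4 tumours of day 27 were unequal: the median of the 83 genes against controls was 0.25 in tumour 3, and -0.18 in tumour 4. All 3 calls were lost in each of the 3 ways to average the 4 tumours in pairs as if by mouse, and no member was called without day 27 tumour 1 or without day 3 control 2. Between days 27 and 18, 1 member was higher and 5 were lower on day 27. Of all tested genes 10% were called, 3.19% higher and 6.86% lower. Without day 27 tumour 3, 33 members were called, beside 12.1% of all tested genes. The number of members called fell when either day 18 tumour was left out. Uqcrc1 had 79.1, 77.8, 88.5 and 68.1 on day 27, against 107 and 104 on day 18 (log2 change -0.43 ± 0.11, adjusted p = 0.0288), a call lost in 4 of 15 other settings and without 5 of the 14 tumours.

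The members called late were placed unevenly over the chromosomes, a pattern looked for after their values were seen and given without a test. All 3 general subunits called on day 18, and Ndufb2 on day 27, lie on chromosome 6, and Ndufv1 lies on chromosome 19. Over the 326 other protein-coding genes of chromosome 6 with a mean of 20 or more, the median log2 change was 0.36 on day 27 with 89% above 0 and 40.8% called higher, and 0.19 on day 18 with 75.2% above 0 and 10.4% called higher. Over the 242 such genes of chromosome 19 it was -0.22 on day 27 with 21.1% called lower, and -0.12 on day 18 with 13.6% called lower. These were the highest and the lowest of the 20 chromosomes on both days, and chromosome 19 was also the lowest on days 3 and 6. On days 3 and 6 the median was -0.14 and 0.00 for chromosome 6 and -0.25 and -0.21 for chromosome 19. The per-tumour median of chromosome 6 was 0.28, 0.29, 0.49 and 0.34 on day 27 and 0.18 and 0.22 on day 18, against -0.04 to 0.02 in controls. That of chromosome 19 was -0.31 to -0.07 in the 10 treated tumours, against -0.10 to 0.06 in controls, so that the lowest control reached into the treated range.

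The 5 members on chromosome 6, Ndufa4, Ndufa5, Ndufa9, Ndufb2 and Cycs, had a median log2 change of 0.40 on day 27, and the 4 on chromosome 19, Ndufv1, Ndufs8, Ndufb8 and Cox8a, of -0.26. Ndufs8 had 97.6, 72.2, 108 and 82.7 on day 27, against 101 to 137 in controls (log2 change -0.46, limma adjusted p = 0.0562). An alternative chosen after seeing the data subtracted, in each tumour, the difference between a chromosome's median and the median over all chromosomes. A shift that all chromosomes shared was thus kept. The day 27 change was then 0.13 for Ndufb2 (limma adjusted p = 0.546) and -0.13 for Ndufv1 (adjusted p = 0.4). On day 18 Cycs then stood at 0.51 (adjusted p = 0.0783), Ndufa9 at 0.30 (adjusted p = 0.0712) and Ndufa4 at 0.48 (adjusted p = 0.046). Ndufv1 stood at -0.28 on day 3 (adjusted p = 0.0312) and at -0.16 on day 6 (adjusted p = 0.35), where its call was lost. The exons of Ndufb2 overlap those of Braf, the gene of the drug's target, on the other strand. Braf had 6.56, 7.74, 8.51 and 8.59 on day 27, against 5.20 to 5.99 in controls (log2 change 0.42 ± 0.11, adjusted p = 0.0442), and neighbouring Mrps33 had 117 to 143.5, against 91.2 to 104 (0.40 ± 0.08, adjusted p = 0.0122). DNA copy number was not measured here, and its part in these values was not tested.

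**Figure D4:**
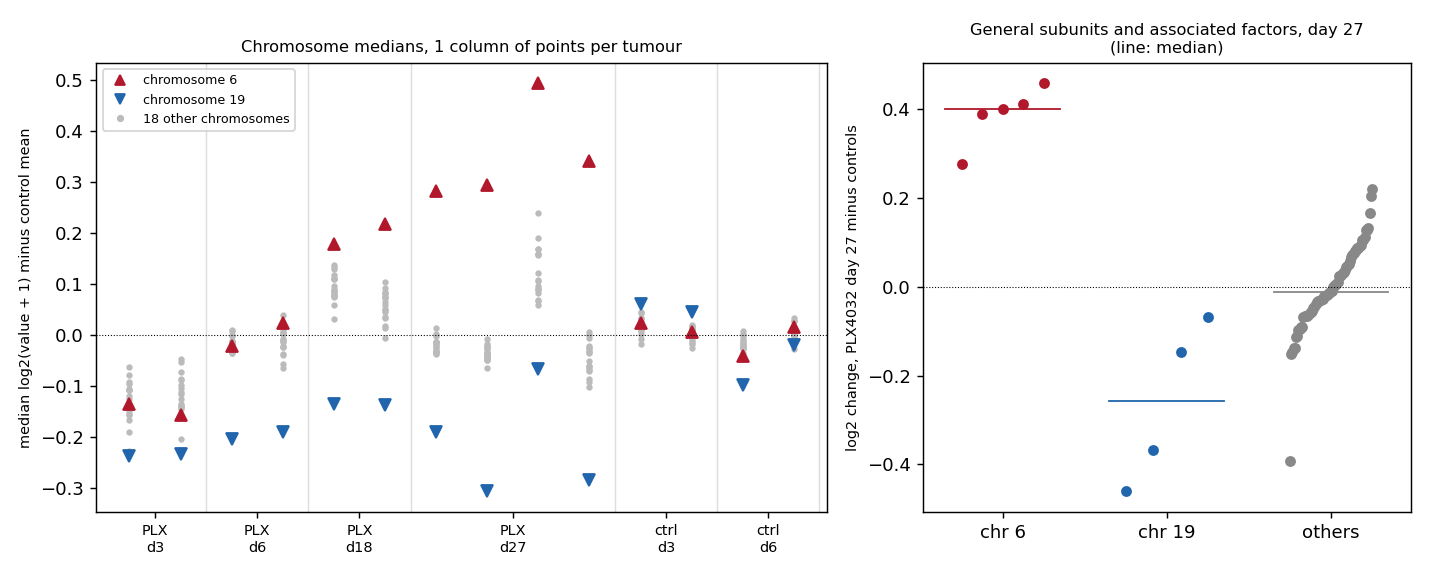
Left: median over protein-coding genes of each chromosome of log2(value + 1) minus the control mean (vertical axis), 1 column of points per tumour, chromosome 6 as red and chromosome 19 as blue triangles, 18 other chromosomes in grey. Right: log2 change on day 27 of the general subunits and associated factors by chromosome, with medians as lines. Chromosome 6 lies at 0.28 to 0.49 on day 27, above all others, and its 5 members at a median of 0.40.

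The tissue isoforms replace a general subunit of complex IV in particular cells, and all were far below their partners: Cox6b2 had 0.632 to 5.88 over all tumours and Cox6b1 351 to 566, and Cox8b had 0 to 23.0 and Cox8a 530.2 to 788. Cox6a2, Cox7a1 and Cox8b are the heart and skeletal muscle forms in mice, Cox6b2 the testis form, Cox4i2 a form of lung and of pericytes, and Ndufa4l2 a relative of Ndufa4 induced by hypoxia. On day 3, 5 of the 6 rose, and none of the general partners Cox4i1, Cox6a1, Cox6b1, Cox7a2, Cox8a and Ndufa4 was called. The RefSeq sequences before the starts of 2 isoforms and their partners are shown, since they differ in CpG number: 2 and 10 for Cox8b and Cox6b2, and 19 and 17 for Cox8a and Cox6b1, in windows of 300 bases. They lie on the minus strand of GRCm38.p6, Cox8b at chr7:140900447-140900696, Cox8a at chr19:7217617-7217866, Cox6b2 at chr7:4753095-4753344 and Cox6b1 at chr7:30626115-30626364. Capitals mark the ETS letters, read on the other strand, in Cox6b1.
Cox8b: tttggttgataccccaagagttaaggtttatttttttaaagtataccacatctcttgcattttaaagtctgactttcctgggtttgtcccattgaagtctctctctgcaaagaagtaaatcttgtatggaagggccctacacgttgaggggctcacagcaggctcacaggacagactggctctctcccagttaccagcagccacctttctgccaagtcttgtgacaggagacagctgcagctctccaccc
Cox8a: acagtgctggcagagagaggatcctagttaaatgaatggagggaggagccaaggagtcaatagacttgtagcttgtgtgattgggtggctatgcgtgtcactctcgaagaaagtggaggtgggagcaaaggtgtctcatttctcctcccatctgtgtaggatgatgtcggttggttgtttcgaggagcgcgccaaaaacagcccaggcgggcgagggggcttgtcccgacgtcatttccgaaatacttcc
Cox6b2: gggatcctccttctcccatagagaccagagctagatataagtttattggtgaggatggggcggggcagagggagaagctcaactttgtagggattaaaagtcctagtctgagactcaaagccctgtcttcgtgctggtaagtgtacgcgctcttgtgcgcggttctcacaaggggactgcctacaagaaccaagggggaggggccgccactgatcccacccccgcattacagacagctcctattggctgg
Cox6b1: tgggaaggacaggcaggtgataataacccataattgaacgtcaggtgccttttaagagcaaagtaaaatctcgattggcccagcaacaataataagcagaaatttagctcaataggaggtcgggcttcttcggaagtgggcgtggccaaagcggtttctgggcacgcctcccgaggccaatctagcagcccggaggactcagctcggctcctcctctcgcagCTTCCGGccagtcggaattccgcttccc
Cox8a has 2 ETS matches in its window of 300 bases, neither of them complete within the bases shown, and Cox8b has the letters TATAAA, found in 9.33% of member windows and 13.6% of all windows, just after its start.

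Cox6b2 (chromosome 7, 4751792 to 4753094, minus strand) had 5.39 and 5.88 on day 3 of PLX4032, 2.70 and 2.23 on day 6, 2.36 and 2.73 on day 18, and 1.12, 1.07, 0.971 and 0.632 on day 27, against 1.33, 1.26, 1.30 and 0.683 in controls. Every tumour of days 3, 6 and 18 lay above every control and every tumour of day 27. The log2 change, on log2(value + 1), was 1.64 ± 0.16 on day 3 (limma adjusted p = 6.39e-05), 0.70 ± 0.16 on day 6 (adjusted p = 0.037), 0.74 ± 0.16 on day 18 (adjusted p = 0.0233) and -0.13 ± 0.13 on day 27 (adjusted p = 0.628). Day 27 was lower than day 18 by -0.87 ± 0.16 (adjusted p = 0.00909) and day 6 lower than day 3 by -0.94 ± 0.19 (adjusted p = 0.00738). The day 3 call held in all 16 other settings and without each of the 14 tumours. The day 6 call was lost in 8 of 16 other settings and without 9 of the 14 tumours, and the day 18 call in 3 of 15 and without 4, which were both tumours of day 18, day 3 control 2 and day 6 control 2.

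Of the muscle forms, Cox6a2 is given beside skeletal muscle markers. Cox6a2 (chromosome 7, 128205435 to 128206387, minus strand) had 13.2 and 13.4 on day 3, 5.93 and 10.5 on day 6, 4.12 and 17.4 on day 18, and 0.585, 0.387, 1.41 and 1.03 on day 27, against 4.18, 2.03, 4.72 and 1.12 in controls. It was high on day 3 (log2 change 1.95 ± 0.52, limma adjusted p = 0.0105) and lower on day 27 than on day 18 (-2.42 ± 0.52, adjusted p = 0.017), a call lost in all 3 pairings of the day 27 tumours and without day 18 tumour 2, the one high in muscle markers. The sum of 17 muscle markers was 1192 and 1087 on day 3, 450.1 and 701 on day 6, 80.2 and 2421 on day 18, and 29.9, 31.4, 28.3 and 54.0 on day 27, against 429.5, 328, 441 and 80.0 in controls. Ckm, the creatine kinase of muscle, was 76.4 and 67.6 on day 3 and 0.0747 to 0.573 on day 27, against 0.515 to 23.1 in controls. The low and the high day 18 tumour, and the lowest control, were the same for Cox6a2 as for these markers. Their part in the result was not tested. Cox7a1 had 7.17 and 6.96 on day 3, against 3.52 to 4.92 in controls, apart from the controls but without passing the test (0.63, adjusted p = 0.0934), and fell on day 6 relative to day 3 (-1.07 ± 0.33, adjusted p = 0.0459), a call lost in 11 of 15 other settings and without 11 of the 14 tumours.

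Cox8b (chromosome 7, 140898945 to 140900446, minus strand) had 9.22 and 6.46 on day 3, 4.45 and 7.04 on day 6, 14.2 and 23.0 on day 18, and 0, 0, 0 and 1.03 on day 27, against 2.64, 1.45, 3.97 and 0.236 in controls. It rose on day 3 (log2 change 1.68 ± 0.50, limma adjusted p = 0.0186) and on day 18 (2.81 ± 0.50, adjusted p = 0.00851), when both tumours lay above all others. The day 3 call was lost in 3 of 16 other settings and the day 18 call in 2 of 15. A pseudocount of 0.1 and a fit of only the groups compared lost both. Day 27, with 3 tumours listed at 0, was below day 18 by -4.00 ± 0.50 on log2(value + 1) (adjusted p = 0.000745), a size that depends on the pseudocount and ran from -6.63 to -2.15 over the other settings. Beside it, the sum of 12 adipocyte markers was 3318 and 3552 on day 18 and 44.5 to 59.7 on day 27, against 58.8 to 134 in controls. It was 259 and 222.5 on day 3, above all controls, and 103 and 111 on day 6. On day 3, 7 of these markers rose and 0 fell, or 58.3% called beside 45.8% of all tested genes. Adipoq was 111 and 142 on day 18 and 0 to 0.0827 on day 27, against 0.306 to 3.70 in controls. Day 18 tumour 1 had Cox8b at 14.2 with Ckm at 4.52 and a muscle sum of 80.2, while the day 3 tumours had 9.22 and 6.46 at muscle sums of 1192 and 1087. The part of fat and muscle in the result was not tested.

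**Figure D5:**
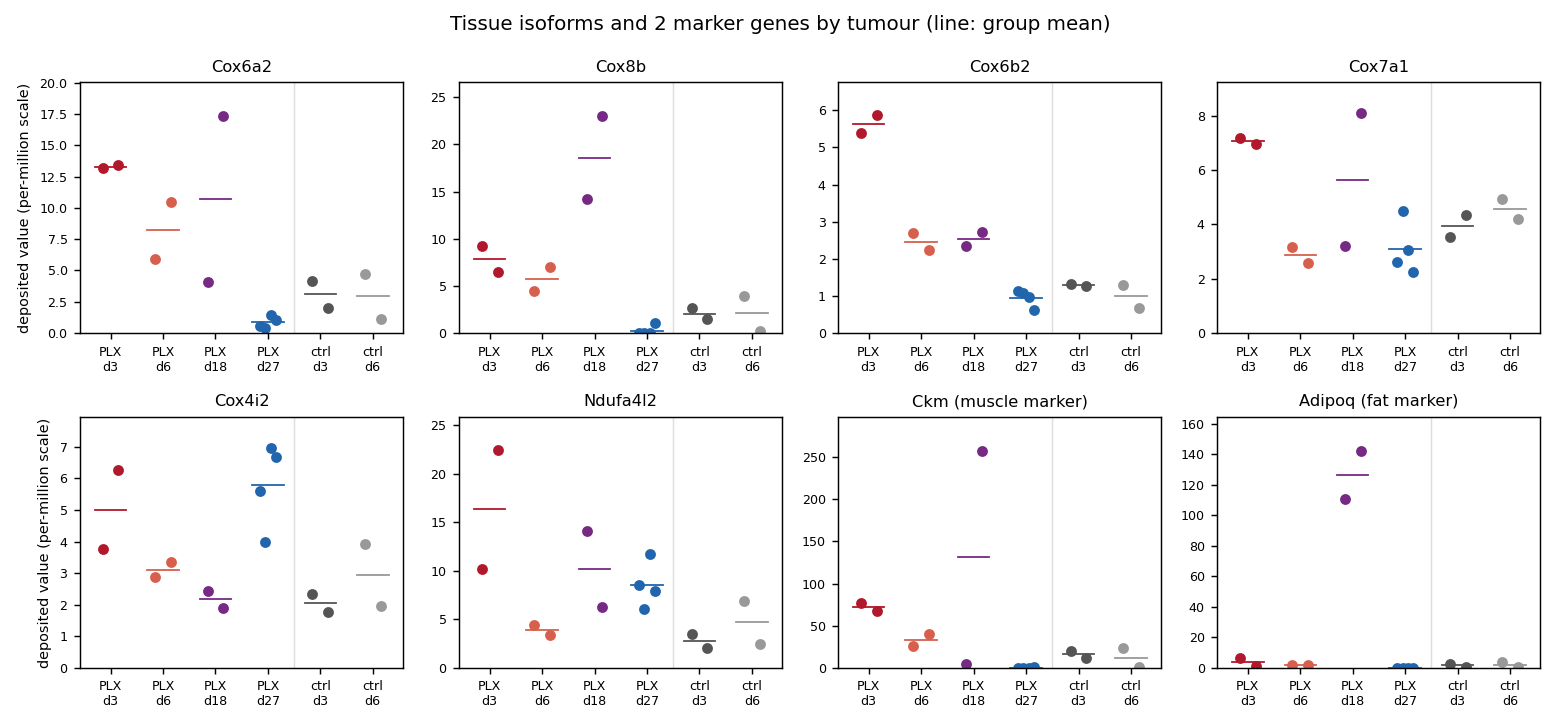
Deposited value (vertical axis, per-million scale, from 0) of the 6 tissue isoforms and of the muscle marker Ckm and the fat marker Adipoq in each tumour, PLX4032 days left of controls, lines for group means. Cox6a2 and Ckm are high in the same day 18 tumour (17.4 and 258), Cox8b and Adipoq are high in both, and all 4 have their lowest group mean on day 27.

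Cox4i2 and Ndufa4l2 followed other courses. Cox4i2 (chromosome 2, 152754173 to 152765037, plus strand) had 3.75 and 6.27 on day 3, 2.89 and 3.34 on day 6, 2.45 and 1.90 on day 18, and 5.61, 3.97, 6.96 and 6.67 on day 27, against 2.35, 1.77, 3.92 and 1.97 in controls. Day 27 lay above all controls and day 3 overlapped them, with log2 changes of 0.97 ± 0.21 (limma adjusted p = 0.023) and 0.78 ± 0.26 (adjusted p = 0.0297), and day 27 was also above day 18 (1.08 ± 0.26, adjusted p = 0.0274). Both day 27 calls were lost in all 3 pairings of the day 27 tumours. Of 12 pericyte and smooth muscle markers, 5 rose and 0 fell on day 27, or 41.7% called beside 6.67% of all tested genes. Not all went up: 8 of the 12 had an estimate above 0, and the log2 changes ran from -2.93 to 2.30. On day 3, 6 rose and 1 fell, or 58.3% called beside 45.8%. These markers summed to 363 to 547 on day 27 and to 639.9 and 779 on day 3, against 247 to 373 in controls. On days 6 and 18 they summed to 421 to 646. Their part in the result was not tested. Ndufa4l2 (chromosome 10, 127514967 to 127517154, plus strand) had 10.2 and 22.5 on day 3, 4.43 and 3.34 on day 6, 14.2 and 6.23 on day 18, and 8.56, 6.02, 11.7 and 7.94 on day 27, against 3.52, 2.03, 6.92 and 2.43 in controls. Both day 3 tumours were above the controls (1.88 ± 0.43, adjusted p = 0.00451), and day 6 was below day 3 (-1.74 ± 0.49, adjusted p = 0.0334). Of 23 glycolysis and hypoxia genes, 2 rose and 6 fell on day 3 (median -0.36), or 34.8% called beside 45.8% of all tested genes. The median was -0.40 on day 6, -0.31 on day 18 and 0.16 on day 27. The part of hypoxia in the result was not tested. Exons of Ndufa4l2 overlap Shmt2, and those of Cox6a2 overlap Itgad, on the other strand.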

How the data were processed

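The authors made TruSeq RNA libraries from 14 whole tumours, per the labels' protocols. Expression signal was deposited in 1 table by gene symbol. Its name says TPM, yet column totals differ, and 5 of 14 exceed the TPM total. Tools given, without versions, are kallisto and sleuth, with the mm10 build, per the submitters' processing notes. The analysis was planned for TPM and its test was kept for this signal. Without counts the read depth is unknown, and the number of tumours limits the precision.

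Names matched a mouse gene table for 17859 of 18481 rows (96.6%), and coordinates are those of GENCODE M21. Values were taken as log2(value + 1). Genes at 1 or higher in 2 or more tumours were kept. A limma model (version 3.58.1, R 4.3.3) with 1 mean for each of 6 groups and a variance trend left 8 residual degrees of freedom. Tests were 2-sided, and p-values were adjusted by Benjamini-Hochberg over 15841 genes at a threshold of 0.05. The day 27 tumours enter the spread estimate that every comparison uses. The steps were tested on simulated data. The members, gene lists and markers were chosen with earlier results of these data known. Named members were, per comparison, the 2 with the smallest p in each complex, the 4 highest and 4 lowest changes, calls against the main direction, and isoforms and core subunits; from other lists, the 3 with the smallest p. Of the listed genes, 104 repeat the values of another, none of them a member. Exons of 29 of 83 members overlap another gene, 25 of them on the other strand. Promoters are RefSeq windows, searched on both strands. Figures used python 3.11.15, pandas 2.3.3 and matplotlib 3.10.9. Alternatives were other pseudocounts, filters, scalings, variance models, samples in the fit, controls of the same day, pairings of the day 27 tumours and leaving out each tumour. Subtraction of chromosome medians, taken relative to the median over all chromosomes of a tumour, and a protein-coding nuclear total were added after seeing the data.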

Additional observations from a re-analysis of the deposited data

Results flagged for a closer look

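Of 98 groups of 4 tumours tested with Dixon's criterion, 6 held a tumour far from the others, and chance gives about 1 in 20. On day 27 of PLX4032, tumour 3 had Cox7a2l at 235 (others 178 to 185) and Ndufa5 at 163 (others 109 to 114), and tumour 4 had Cox8b at 1.03 where the others were listed at 0. Among the controls, day 6 tumour 2 had Cox6b2 at 0.683 (others 1.26 to 1.33), day 3 tumour 2 had Atp5s at 7.70 (others 13.4 to 14.4), and day 6 tumour 1 had a sum of the mitochondrially encoded subunits of 50699 (others 45664 to 46159).

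PLX4032 tumours differed between adjacent days in 13 cases, each from limma's test of the difference itself with its adjusted p. No controls were subtracted, so time on the drug and age of the tumour cannot be told apart. Day 6 minus day 3 was -0.94 for Cox6b2 (limma adjusted p = 0.00738), -0.63 for Cox7a2l (adjusted p = 0.012), 0.60 for Ndufa12 (adjusted p = 0.0137), -0.53 for Ndufv3 (adjusted p = 0.0265), 0.46 for Atp5b (adjusted p = 0.0333), -1.74 for Ndufa4l2 (adjusted p = 0.0334) and -1.07 for Cox7a1 (adjusted p = 0.0459) on the log2 scale. Day 27 minus day 18 was -4.00 for Cox8b (limma adjusted p = 0.000745), -0.87 for Cox6b2 (adjusted p = 0.00909), -2.42 for Cox6a2 (adjusted p = 0.017), 1.08 for Cox4i2 (adjusted p = 0.0274), -0.43 for Uqcrc1 (adjusted p = 0.0288) and -0.41 for Atp5o (adjusted p = 0.049). In all 13 cases the tumours of both days did not overlap, but the cases were chosen by this test, so that adds no support.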

How the results depend on the processing

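No paired analysis was possible because the columns carry no animal numbers. No single gene's called change reversed. The day 3 balance of 9 rises and 6 falls turned to 8 and 13 under median-of-ratios, 12 and 17 under quantile normalisation and 12 and 19 with the nuclear total. The day 27 median of the members, -0.01, was 0.02 under quantile normalisation and 0.08 with 1 total. The number of members called was 15 on day 3, 2 on day 6, 5 on day 18, 3 on day 27, 7 for day 6 against day 3, 0 for day 18 against day 6 and 6 for day 27 against day 18. On day 3 it was 29 under quantile normalisation, 23 with 1 total per column, 31 with 1 protein-coding nuclear total and 26 under pairings 1 and 3 of the day 27 tumours. On day 6 it was 1 with a pseudocount of 5, a filter at 5, no filter, quantile normalisation, 1 total, no trend, sample weights or chromosome medians subtracted, and 0 with a pseudocount of 0.1, only the groups compared, controls of the same day only or any pairing. On day 18 it was 8 under quantile normalisation, 10 with either total, 3 without trend, 11 with weights, 1 with only the groups compared, 16 and 11 under pairings 1 and 3, and 3 with chromosome medians subtracted. On day 27 it was 5 under median-of-ratios, 8 under quantile normalisation, 10 with 1 total, 9 with the nuclear total, 1 with chromosome medians subtracted, 0 under pairings 1 and 2 and 1 under pairing 3, which is Ndufa4. Day 6 against day 3 gave 11 under quantile normalisation, 12 with the nuclear total and 1 with only the groups compared. Day 18 against day 6 gave 1 with weights, 2 under pairing 1 and 1 under pairings 2 and 3. Day 27 against day 18 gave 25 with weights and 2 under pairings 2 and 3. The cause was not tested. Where this left a lone tumour in a group, it was assumed to vary like the others. Leaving out each tumour gave 4 to 26 on day 3, 0 to 2 on day 6, 0 to 14 on day 18, 0 to 5 on day 27, 0 to 9, 0 to 3 and 1 to 33 for the adjacent days, and 0 to 0 between the control days. The highest counts on days 3 and 18 and for all 3 pairs of adjacent days came without day 27 tumour 3. On day 6 no member was called without day 3 control 2, day 6 control 2, tumour 2 of day 3 or day 6 under PLX4032, or any 1 tumour of day 27. Without a tumour of day 18 (1 or 2), the calls of Cox6b2, Ndufa4, Ndufa9 and Cycs were lost, and likewise without day 3 control 2 or day 6 control 2; that of Cycs was lost in 8 of 14 such fits. Quantile normalisation put the median of all genes on day 3 at -0.15, against 0.02, and the share of rises among called genes at 38.9%, against 54.4%. That share was 60.4%, against 75.9%, on day 6 and 44.9%, against 68.4%, on day 18. With 1 total it was 90.2% on day 6 and 74.3%, against 53.7%, on day 27. For day 27 against day 18 it was 59.1% under quantile normalisation, against 31.7%. The calls of Cox6b2, Atp5b and Ndufa12 on day 3, and of Cox8b between days 27 and 18, held in every other setting and without each tumour in turn. That of Cox7a1 between days 6 and 3 was lost in 11 of 15 settings. Those of Ndufv1 on day 6 and Atp5o between days 27 and 18 were lost without 13 of the 14 tumours. Of 5734 values of single genes under other settings, 587 belonged to called changes, and 95 of these lost the call. Among the remaining values, 132 gained one.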
